A study of Homo sapiens with 10 samples.

Results

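In the deposited table, 3 columns hold liver cancer cells given a CDK4/6 inhibitor and 3 hold the matching controls, 6 of the 10 libraries of the series. They were chosen by their labelled treatment and paired by cell line. The lines are named Huh7, PLC and 97H, and the labels call each a liver cancer cell line of human origin. The other 4 libraries, PLC and 97H given an XPO1 inhibitor (KPT330 in the sample titles) alone or with the CDK4/6 inhibitor, entered the test only to estimate the spread. Controls are called control in the labels, and the treatment protocol speaks of vehicle. The CDK4/6 inhibitor has no name in the labels, and the sources used here give neither its dose nor the time of treatment. Each line has 1 library per treatment, which makes the cell lines the replicates: 3 controls and 3 inhibitor libraries, and no test was possible within a line. A p-value here sets the response against the spread of treatment effects between lines, estimated from all 10 libraries and not from the CDK4/6 inhibitor pairs alone. Values are FPKM, fragments scaled by transcript length and by the mapped fragments of the library, and a log2 ratio is log2(inhibitor FPKM + 1) minus log2(control FPKM + 1) within a line.

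CDK4 and CDK6 are kinases that bind D-type cyclins and phosphorylate the retinoblastoma protein RB1. Unphosphorylated RB1 and its relatives RBL1 and RBL2 hold E2F transcription factors in a repressed state, so phosphorylation releases genes for DNA replication, nucleotide synthesis and, later in the cycle, mitosis. Proteins of the INK4 family, such as the product of CDKN2C, bind CDK4 and CDK6 and block them. In liver cancer cells, inhibitors of these kinases are used to hold cells in G1, and the arrest is known to depend on RB1.

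The libraries held between 9067 and 10165 genes at 1 FPKM or more, fewest in 97H with the inhibitor and most in the Huh7 control; in the PLC pair the count was 9090 in the control and 10154 with the inhibitor. The response of 2 lines followed the base composition of the transcripts. Over the 10453 tested genes with a known transcript, the log2 ratio and GC content had a Spearman rho of -0.674 in PLC, 0.724 in 97H and 0.176 in Huh7, a description across genes, which are not replicates. From the lowest to the highest quintile of GC content, the median log2 ratio went from 0.87 to -0.49 in PLC, from -0.57 to 0.37 in 97H and from -0.20 to 0.03 in Huh7. Against the mean of the other 3 libraries of its line, GC content had a rho of 0.607 in the PLC control, -0.640 in PLC with the inhibitor, -0.530 in the 97H control and 0.677 in 97H with the inhibitor. That mean holds the other library of the pair, so a trend in 1 library gives its partner the opposite sign. PLC with the XPO1 inhibitor had -0.672. Against the mean of all 10 libraries the values were 0.357 and -0.395 for the PLC control and inhibitor, -0.123 and 0.418 for 97H and -0.210 and -0.0768 for Huh7. The median of all tested genes was -0.04 in Huh7, 0.18 in PLC and -0.06 in 97H, so log2 ratios in PLC are read against 0.18, not 0. Values after removal of the trends with GC content and transcript length, library by library, are given as "trends removed". Removal left the PLC median at 0.21. Whether the trends arose in library preparation or in the cells was not tested.

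**Figure D1:**
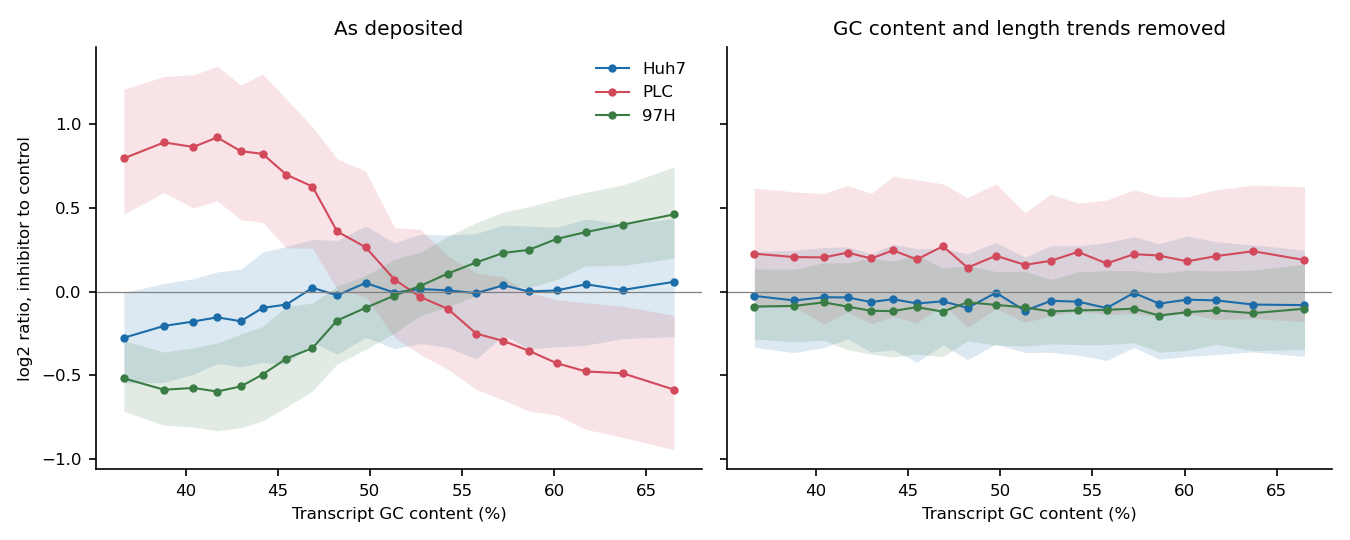
Median log2 ratio of inhibitor to control (y axis, log2 of FPKM + 1) in 20 bins of genes ordered by transcript GC content (x axis, percent), for Huh7, PLC and 97H, as deposited on the left and after trend removal on the right; shaded bands span the middle 50% of genes. As deposited, the PLC curve runs down from low to high GC content and the 97H curve runs up, with quintile medians of 0.87 and -0.49 in PLC and -0.57 and 0.37 in 97H.

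The lines also differed in liver identity. The 10 hepatocyte markers, among them ALB, APOA1 and HNF4A, summed to 5764 FPKM in the Huh7 control and 7658 with the inhibitor, 1977 and 1990.2 in PLC, and 40.2 and 56.3 in 97H. These sums rest largely on single genes: TTR held 3168 FPKM of the Huh7 inhibitor sum, and the highest marker in PLC held 1673 and 1759 FPKM. The median log2 ratio of the 10 was -0.15 in Huh7, -0.36 in PLC and 0.18 in 97H, with 6, 7 and 2 of them lower. No marker was at 0, but in 97H 6 of the 10 reached 1 FPKM in the control and 7 with the inhibitor. The 4 bile duct markers (KRT7, KRT19, EPCAM and SOX9) summed to 474 and 582 FPKM in the Huh7 control and inhibitor libraries, 14.5 and 29.7 in PLC and 486 and 620.3 in 97H. In 97H that sum lay above the hepatocyte sum, but 1 marker made up nearly all of it, 479 FPKM in the control and 601 with the inhibitor. In Huh7 the highest bile duct marker held 429 and 529 FPKM. The 7 leukocyte markers summed to 109 and 149 FPKM in Huh7, 40.5 and 117 in PLC and 49.3 and 66.2 in 97H, largely from LYZ and CD68, with PTPRC and CD3E at 0.0328 FPKM or less. Both sums were higher with the inhibitor in each line, and their part in the results was not tested. Endothelial markers summed to 0.0339 to 4.95 FPKM.

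No gene passed limma's test at an adjusted p under 0.05 (0 of 10477, 0%), and the smallest adjusted p was 0.461. The count was also 0 in 18 of the 19 other settings tried, and 154 when the PLC control and inhibitor libraries were left out, as given at the end. At an unadjusted p under 0.05, limma gave 479 genes higher with the inhibitor (4.57% of those tested) and 443 lower (4.23%). In all 3 lines 1350 genes were higher (12.9%) and 1078 lower (10.3%). At least 2-fold on the FPKM + 1 scale, 8 genes were higher in all 3 lines (0.0764%) and 0 were lower (0%). Within single lines, at least 2-fold higher and lower genes numbered 410 (3.91%) and 454 (4.33%) in Huh7, 1909 (18.2%) and 554 (5.29%) in PLC, and 247 (2.36%) and 421 (4.02%) in 97H. With the trends removed, these became 369 and 392, 985 and 158, and 96 and 66. The values below are therefore descriptions of 3 pairs of libraries.

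The 8 genes at least 2-fold higher in every line were SYNPO, MFGE8, TMEM140, SPARC, TIMP2, MMP24, HLA-DMA and KCNK6. MFGE8, SPARC and TIMP2 encode secreted proteins. Gene positions are those of GENCODE 29 on GRCh38. Synaptopodin, the actin-binding product of SYNPO (chr5:150601080-150659220), went from 6.01 to 17.5 FPKM in Huh7, from 3.06 to 9.91 in PLC and from 3.51 to 13.1 in 97H. All 3 inhibitor libraries lay above all 3 control libraries. MFGE8, a secreted bridge protein of the clearance of dying cells (chr15:88898683-88913411), went from 4.47 to 12.8 FPKM in Huh7, from 12.2 to 93.5 in PLC and from 14.3 to 38.9 in 97H, with log2 ratios of 1.34, 2.84 and 1.38. PLC had the widest step, and the PLC inhibitor library was the highest of the 6. TMEM140, a transmembrane protein (chr7:135148072-135166215), had the smallest p of all genes tested: from 15.7 to 82.4 FPKM in Huh7, from 9.10 to 43.9 in PLC and from 1.76 to 5.69 in 97H, a limma log2 difference of 1.92 (SE 0.30, unadjusted p = 7.73e-05), adjusted p = 0.461. SPARC, a collagen-binding matrix protein (chr5:151661096-151687165), went from 33.9 to 173 FPKM in Huh7, from 2.06 to 5.93 in PLC and from 1.78 to 6.72 in 97H. Its level was much higher in Huh7 than in the other lines, and the groups overlapped across lines though not within any. TIMP2, an inhibitor of matrix metalloproteinases (chr17:78852977-78925387), went from 17.6 to 58.2 FPKM in Huh7, from 2.62 to 13.98 in PLC and from 68.4 to 156 in 97H. In both groups 97H was the highest line. MMP24, a membrane-type metalloproteinase (chr20:35226654-35277000), went from 14.2 to 30.5 FPKM in Huh7, from 1.39 to 4.61 in PLC and from 14.4 to 43.8 in 97H. All 3 pairs of MMP24 were higher with the inhibitor, though the lines overlapped. HLA-DMA, whose product helps load peptides on MHC class II (chr6:32948613-32969094), went from 0.189 to 3.02 FPKM in Huh7, from 2.53 to 6.21 in PLC and from 3.63 to 8.39 in 97H. The potassium channel gene KCNK6 (chr19:38319844-38332076) went from 0.283 to 2.17 FPKM in Huh7, from 0.123 to 1.31 in PLC and from 0.936 to 2.89 in 97H. HLA-DMA and KCNK6 were at low FPKM, where the pseudocount of 1 shrinks the log2 ratio. After trend removal the smallest of the 3 line ratios of these genes was 1.13 for SYNPO, 0.98 for MFGE8, 1.09 for TMEM140, 0.84 for SPARC, 0.98 for TIMP2, 0.85 for MMP24, 0.87 for HLA-DMA and 0.76 for KCNK6. Of the 8, only SYNPO and TMEM140 thus stayed at least 2-fold higher in every line. The next genes by the smallest ratio, just outside the 2-fold line, were FSTL3, an inhibitor of activins (1.18, 0.96 and 1.66 in Huh7, PLC and 97H), S100A1 (1.22, 1.69 and 0.95), TOM1L2 (1.49, 0.95 and 0.94), GPRC5A (2.61, 0.90 and 0.93), PRSS23 (1.55, 3.29 and 0.90), the perlecan gene HSPG2 (1.97, 0.87 and 1.70) and GGT1 (1.10, 1.001 and 0.87). GGT1 belongs to a family of near-identical copies, so its counts are uncertain.

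Among genes lower in every line, CDKN2C came first, since its smallest step over the 3 lines was the largest of any gene lower in all 3. CDKN2C encodes the INK4 inhibitor p18 and is itself an E2F target (chr1:50960745-50974633). It went from 11.8 to 2.27 FPKM in Huh7, from 22.5 to 11.98 in PLC and from 14.3 to 5.60 in 97H, with log2 ratios of -1.97, -0.86 and -1.21 and a limma log2 difference of -1.35 (SE 0.34, unadjusted p = 0.00271). Within every line the inhibitor library was below the control, by most in Huh7 and least in PLC. FKBP4, a cochaperone of HSP90 (chr12:2794953-2805423), went from 51.3 to 18.9 FPKM in Huh7, from 93.6 to 38.8 in PLC and from 74.3 to 42.0001 in 97H, and its ratios of -1.39, -1.25 and -0.81 stood at -1.53, -1.22 and -0.86 with the trends removed. The ETS factor gene ETV4 (chr17:43527844-43579620), an ERK output gene, went from 25.03 to 9.48 FPKM in Huh7, from 81.5 to 20.2 in PLC and from 11.4 to 6.44 in 97H, lowest in ratio in PLC. SSRP1, a subunit of the histone chaperone FACT (chr11:57325985-57335877), went from 46.6 to 14.99 FPKM in Huh7, from 92.2 to 45.96 in PLC and from 65.6 to 39.9 in 97H. CDCA7, an E2F and MYC target (chr2:173354820-173368997), went from 13.2 to 2.45 FPKM in Huh7, from 8.75 to 5.09 in PLC and from 16.5 to 6.72 in 97H. The mitochondrial fatty acid oxidation gene HADH had ratios of -1.65, -0.82 and -0.78, DHRS13 of -0.73, -1.41 and -0.80 and PAGR1 of -0.88, -0.90 and -0.71. RFC4, a subunit of the clamp loader of replication, had ratios of -1.05, -0.64 and -0.76. CDC25A and E2F8, also among these 15 genes, belong to the cyclin D axis described next. H3F3C (-0.77, -0.74 and -1.10), RPL23A (-0.65, -0.62 and -0.68) and POLR2J3 (-0.61, -1.37 and -0.75) have near-identical copies elsewhere, and MDP1 (-0.68, -1.10 and -0.68) overlaps a readthrough gene, so their counts are uncertain. In PLC with the inhibitor MDP1 was at 4.32e-07 FPKM and POLR2J3 at 1.34e-06.

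**Figure D2:**
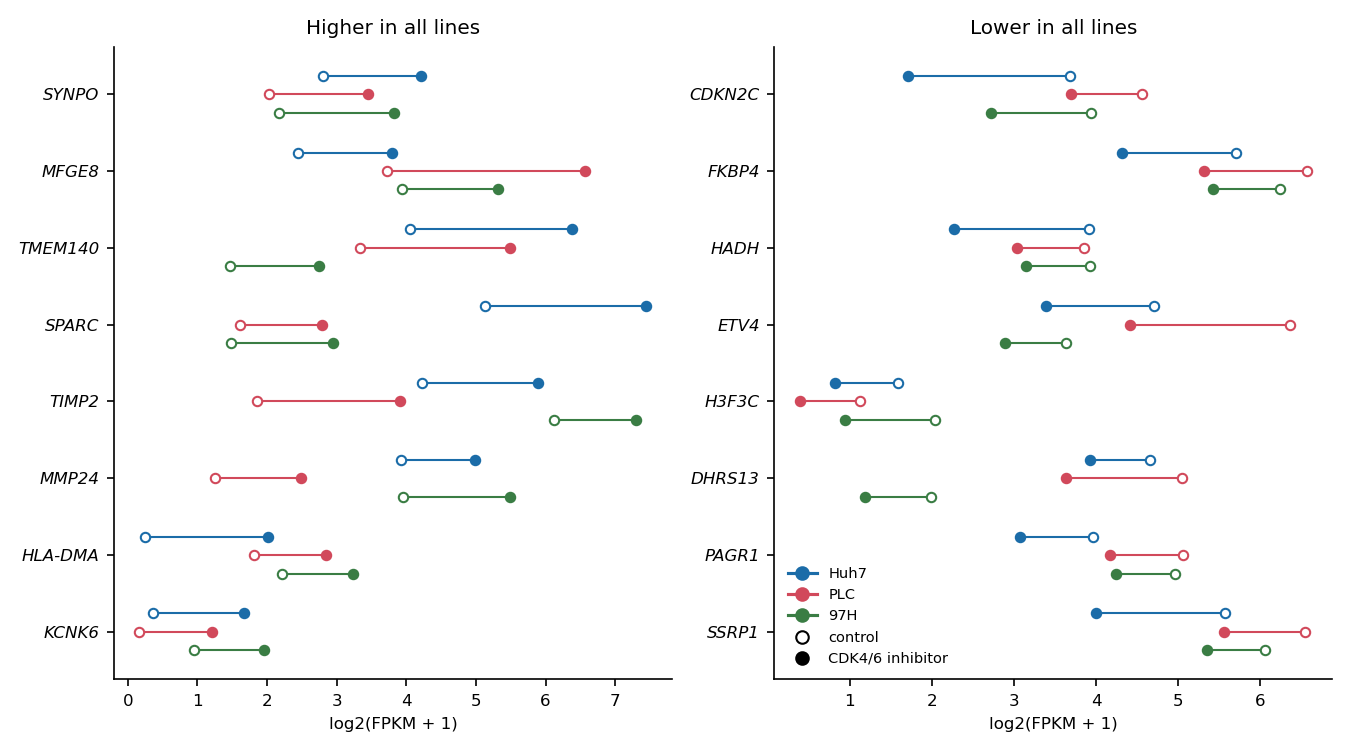
Level in log2(FPKM + 1) (x axis) of the 8 genes in each direction whose smallest step over the 3 lines was largest, with open circles for control and filled circles for the CDK4/6 inhibitor, 1 library each, joined within a line. On the left every filled circle lies to the right of its open partner, by at least 1 on the log2 scale, and on the right every filled circle lies to the left.

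Of the 34 genes of the cyclin D, CDK4/6 and RB axis, 30 passed the filter of a mean of 1 FPKM over the 10 libraries; CCND2, CCNE2, RBL1 and LIN9 did not. Over the 30, the median log2 ratio was -0.36, 0.20 and -0.28 in Huh7, PLC and 97H, beside -0.04, 0.18 and -0.06 over all genes, and under median ratio scaling the PLC value was -0.02. 6 were lower and 3 higher at an unadjusted p under 0.05, against 4.23% and 4.57% of all genes.

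The activating side of the axis split. CCND1, the cyclin D1 gene (chr11:69641087-69654474), went from 121 to 257 FPKM in Huh7, from 38.6 to 144 in PLC and from 64.8 to 79.8 in 97H, with log2 ratios of 1.08, 1.87 and 0.30. All 3 inhibitor libraries lay above their own control, by little in 97H. CCND3, for cyclin D3, had ratios of -0.03, 0.40 and 0.91, and CCND2 was at 0.0265 FPKM or less in each of the 6 libraries. CDK4 itself went from 159.8 to 78.7 FPKM in Huh7, from 214 to 113 in PLC and from 208 to 225 in 97H. It was lower in Huh7 and PLC and slightly higher in 97H, with a limma log2 difference of -0.61 (SE 0.24, unadjusted p = 0.0301). CDK6 was low in Huh7 and went from 0.766 to 0.836 FPKM in Huh7, from 0.544 to 4.23 in PLC and from 2.15 to 1.10 in 97H. Of the 3 pairs, PLC had the widest step. CDK2, the partner of cyclins E and A, had ratios of -0.82, -0.15 and -0.43 and CCNE1, for cyclin E1, of -0.39, 0.20 and 0.56. CDC25A, the phosphatase that activates CDK2 (chr3:48157146-48188402), went from 27.7 to 9.10 FPKM in Huh7, from 14.8 to 7.97 in PLC and from 8.35 to 5.14 in 97H, lower in each line, with ratios of -1.51, -0.82 and -0.61. SKP2, which marks p27 for degradation, had ratios of 0.38, 0.81 and -0.71.

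Among kinase inhibitors, CDKN1A, which encodes p21, and CDKN2B, which encodes the INK4 protein p15, stood higher in each pair. CDKN1A (chr6:36676460-36687339) went from 6.21 to 16.2 FPKM in Huh7, from 4.19 to 13.7 in PLC and from 26.02 to 44.6 in 97H, with a limma log2 difference of 1.17 (SE 0.30, unadjusted p = 0.00275). CDKN2B (chr9:22002903-22009363) went from 11.1 to 27.9 FPKM in Huh7, from 0.145 to 3.02 in PLC and from 4.95 to 5.89 in 97H, and its step in 97H was small. The remaining 2 INK4 genes differed from these: CDKN2A had ratios of -0.94, -0.17 and 0.27 and CDKN2D of -0.37, -0.02 and 0.64. CDKN1B, for p27, had ratios of -1.01, 0.0019 and -1.13, lower in Huh7 and 97H and level in PLC, and CDKN1C, for p57, had -0.35, 0.19 and 0.07.

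RB1, the substrate of CDK4 and CDK6 (chr13:48303726-48599436), differed in level among the controls. It went from 5.30 to 3.11 FPKM in Huh7, from 1.24 to 3.90 in PLC and from 0.281 to 0.196 in 97H. Both 97H libraries lay below the other 4, and PLC was higher with the inhibitor where Huh7 was lower. For RBL2 the ratios were 0.13, 1.16 and -0.70. RBL1 was at 2.06 FPKM or less in each of the 6 libraries, with ratios of -0.78, 0.86 and -0.86. GC content was 37.3% in RB1 and 43.2% in RBL2, below the median of 50.6% over tested genes, and with trends removed the PLC ratio of RB1 was 0.47 and that of RBL2 0.48.

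Of the E2F genes, the repressor E2F8 and the activator E2F2 were lower in each line. E2F8 (chr11:19224063-19241620) went from 3.05 to 0.685 FPKM in Huh7, from 1.73 to 0.810 in PLC and from 1.64 to 0.508 in 97H. E2F2 (chr1:23506430-23531220) went from 3.04 to 0.588 FPKM in Huh7, from 8.995 to 3.35 in PLC and from 2.42 to 1.62 in 97H. Both were low in FPKM, and the 97H step of E2F2 was the smallest. E2F1, an activator and itself an E2F target, had ratios of -1.08, -0.77 and 0.28, and the repressor E2F7 of -1.58, -0.09 and -0.36. The ratios of E2F3 were 0.18, 1.01 and -0.29, of E2F4 -0.21, -0.77 and -0.03, of E2F5 -1.02, 1.19 and -0.89 and of E2F6 -0.14, 0.60 and -0.28. Their dimer partners TFDP1 and TFDP2 had -0.50, 0.20 and -0.31 and 0.51, 0.24 and 0.21. Subunits of the DREAM complex, which represses cell cycle genes in quiescence, were LIN37 with 0.34, -0.03 and 0.62, LIN52 with -0.03, 0.61 and -0.29, LIN54 with -0.14, 1.02 and -0.90 and LIN9 with -0.65, 0.32 and -0.44. CCNE2, the E2F target for cyclin E2, went from 2.12 to 0.234 FPKM in Huh7, from 0.407 to 0.598 in PLC and from 0.801 to 0.737 in 97H, lower in Huh7 and otherwise at low FPKM. The ratios of the E2F, dimer partner and DREAM genes are as deposited. The part of the GC content trends in them was not tested.

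**Figure D3:**
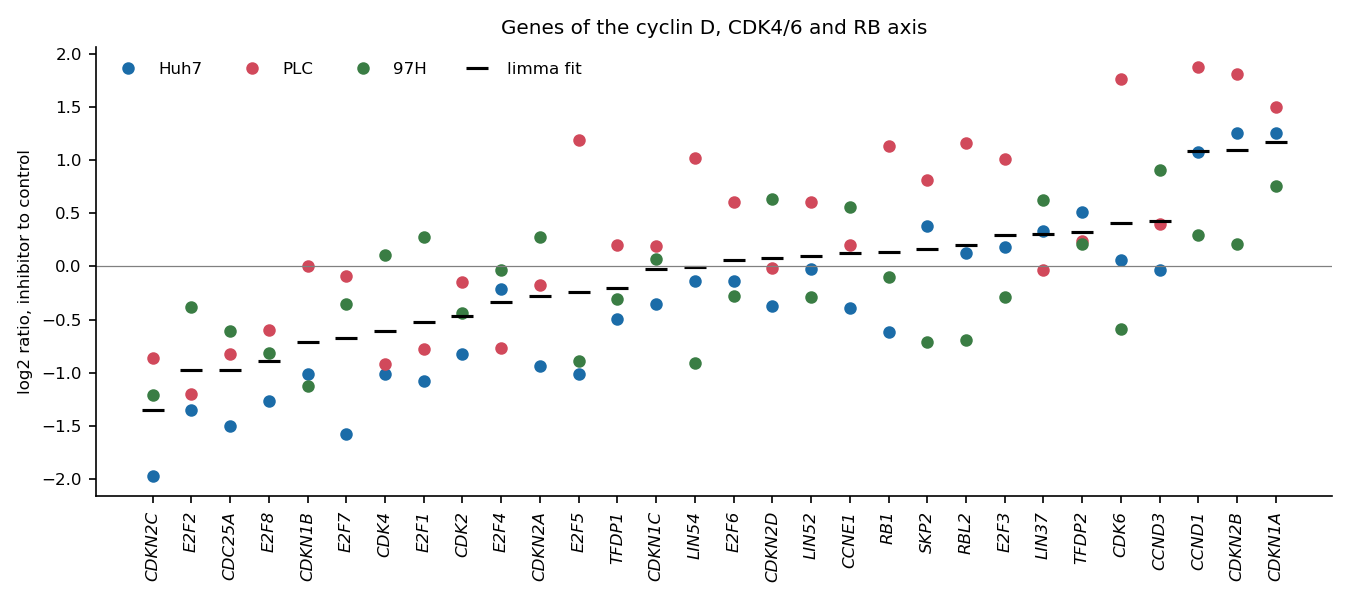
Log2 ratio of inhibitor to control (y axis), as deposited, for the 30 tested genes of the cyclin D, CDK4/6 and RB axis, ordered by the limma log2 difference (black dash), with 1 point per line. CDKN2C, E2F8, CDC25A and E2F2 have 3 points below 0, CDKN1A, CDKN2B and CCND1 have 3 above, and genes such as RB1 and E2F5 have PLC on the other side of 0 from Huh7.

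The DNA replication list stood lower in all 3 lines. Of 51 genes 49 were tested, with median log2 ratios of -0.98, -0.31 and -0.40 in Huh7, PLC and 97H (-0.99, -0.45 and -0.38 with trends removed), and the sign of each median held under median ratio scaling and quantile normalization. 24 of the 49 were lower in every line and 0 higher, and 20 were lower at an unadjusted p under 0.05. Of all tested genes, 10.3% were lower in every line and 4.23% lower at that threshold. The counts of lower genes in the lists that follow are read against the same shares. Because RNA was taken from whole cultures, fewer cells in S phase and less RNA per cell cannot be told apart. The members with the smallest p were MCM7, PRIM1, GINS2, MCM2 and CDT1. MCM7, a subunit of the replicative helicase, went from 187 to 46.2 FPKM in Huh7, from 112 to 35.4 in PLC and from 207 to 175 in 97H. The steps in Huh7 and PLC were large and that in 97H small. PRIM1, the catalytic primase subunit, went from 21.5 to 3.82 FPKM in Huh7, from 8.38 to 5.38 in PLC and from 13.7 to 3.33 in 97H. GINS2, part of the CMG helicase, went from 41.4 to 6.003 FPKM in Huh7, from 40.7 to 13.8 in PLC and from 27.97 to 21.1 in 97H. The smallest step was that of PLC for PRIM1 and that of 97H for GINS2. MCM2, another helicase subunit, went from 91.9 to 28.5 FPKM in Huh7, from 67.3 to 31.01 in PLC and from 64.3 to 51.1 in 97H. The licensing factor gene CDT1 went from 37.5 to 9.03 FPKM in Huh7, from 49.5 to 9.73 in PLC and from 25.8 to 25.7 in 97H: in 97H the 2 libraries were nearly equal. PCNA, the sliding clamp, which was picked after its values were seen, had ratios of -1.87, -0.54 and -0.89, and the polymerase subunit gene POLD2 of -1.03, -1.15 and -0.23.

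In the RefSeq promoters of GRCh38.p14, 250 bases before to 50 after the start, 41 of the 49 replication genes had an entry. An E2F site, searched as TTTGGCGC, TTTCGCGC, TTTCCCGC or TTTGCCGC on both strands, was in 19 of the 41 (46.3%), beside 5.64% of the promoters of tested genes and 3.33% of all 300-base promoters. A match is a description and not a binding site. The stretches shown, here and below, were chosen without covering every chromosome. Stretches of the MCM7, GINS2 and CDT1 promoters are shown as 3 replication genes of small p with a match before their start site. They lie at chr7:100101537-100101624 on the minus strand, chr16:85688955-85689025 on the minus strand and chr16:88803714-88803788 on the plus strand, and capitals mark the E2F letters, here read from the opposite strand.
MCM7: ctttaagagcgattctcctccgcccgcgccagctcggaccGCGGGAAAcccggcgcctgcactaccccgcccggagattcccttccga
GINS2: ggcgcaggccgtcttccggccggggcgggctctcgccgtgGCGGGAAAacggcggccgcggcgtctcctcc
CDT1: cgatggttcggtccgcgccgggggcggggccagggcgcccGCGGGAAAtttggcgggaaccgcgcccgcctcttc

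The nucleotide synthesis list also stood lower in all 3 lines. All 27 listed genes were tested, with medians of -0.91, -0.32 and -0.52, and 11 were lower and 0 higher at an unadjusted p under 0.05. IMPDH2, the rate-limiting enzyme of guanine nucleotide synthesis, went from 98.03 to 47.7 FPKM in Huh7, from 206 to 97.8 in PLC and from 75.6 to 51.4 in 97H. TYMS, thymidylate synthase, went from 115 to 27.01 FPKM in Huh7, from 107 to 56.3 in PLC and from 43.1 to 29.8 in 97H. Both were lower within each line, TYMS by most in Huh7. RRM2, the small subunit of ribonucleotide reductase and also picked after its values were seen, had ratios of -1.75, 0.07 and -0.93, which with trends removed were -1.69, -0.55 and -0.48. An E2F match stood in 1 of the 23 promoters of this list (4.35%), beside 5.64% of tested genes.

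Genes of G2 and mitosis differed widely between lines. Of 70 genes 64 were tested, and all 64 were lower in Huh7, 54 of them at least 2-fold. Of all tested genes, 4.33% were at least 2-fold lower in Huh7. The medians were -1.39, 0.11 and -0.79 in Huh7, PLC and 97H. The PLC median changed sign with the processing: it was -0.14 under median ratio scaling, -0.10 under quantile normalization and -0.21 with trends removed. 26 of the 64 were lower in every line, 37 with trends removed, and 24 were lower at an unadjusted p under 0.05. PLK1, the kinase that drives mitotic entry, went from 81.4 to 20.8 FPKM in Huh7, from 103 to 37.7 in PLC and from 104 to 87.2 in 97H. CCNA2, for cyclin A2, went from 41.6 to 8.43 FPKM in Huh7, from 19.9 to 16.9 in PLC and from 24.4 to 7.55 in 97H. PLK1 had its large steps in Huh7 and PLC, CCNA2 in Huh7 and 97H. ESPL1, for separase, had ratios of -1.59, -1.15 and -0.30, PTTG1, for its inhibitor securin, -1.93, -0.12 and -1.21, and FOXM1, a transcription factor of mitotic genes picked after its values were seen, -1.38, -1.29 and -0.10.

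The cell cycle homology region, searched as TTTGAA or TTCGAA on both strands, is the element through which DREAM and MuvB complexes are known to bind. It was in 39 of the 52 promoters of this list (75%), beside 10.7% for tested genes and 16.6% for all promoters, while an E2F match was in 4. In the replication promoters it was in 2 of 41. The PLK1 and ESPL1 stretches are shown as members of small p with a match before the start site. PLK1 is at chr16:23678820-23678888 and ESPL1 at chr12:53268228-53268298, both on the plus strand and ending at the base before the start, with the element in capitals.
PLK1: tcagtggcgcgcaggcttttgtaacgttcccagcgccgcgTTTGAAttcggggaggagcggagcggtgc
ESPL1: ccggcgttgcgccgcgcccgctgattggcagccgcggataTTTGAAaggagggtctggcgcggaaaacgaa

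Repair genes of homologous recombination and the Fanconi pathway had medians of -0.85, 0.17 and -0.79 over 23 tested genes, and 6 were lower at an unadjusted p under 0.05. In PLC the median was -0.09 under median ratio scaling. FANCE went from 3.62 to 1.12 FPKM in Huh7, from 13.5 to 4.06 in PLC and from 4.25 to 3.14 in 97H. MND1, a partner of strand exchange, went from 6.43 to 1.62 FPKM in Huh7, from 7.18 to 4.70 in PLC and from 7.43 to 2.62 in 97H. FANCE stepped most in PLC and MND1 most in Huh7 and 97H.

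Histone chaperones and high-mobility-group proteins, which package and open chromatin, had medians of -1.25, -0.12 and -0.63, all 31 were lower in Huh7, and 17 were lower at an unadjusted p under 0.05, with 0 higher. PTMA, for prothymosin alpha, went from 304 to 124 FPKM in Huh7, from 269 to 122 in PLC and from 384 to 256 in 97H. HMGN2, a nucleosome-binding protein, went from 119 to 26.7 FPKM in Huh7, from 75.5 to 37.5 in PLC and from 109 to 77.4 in 97H. HMGA1, which binds AT-rich DNA, went from 69.7 to 18.1 FPKM in Huh7, from 485 to 193 in PLC and from 444 to 370.3 in 97H. The 3 genes were lower within every line. HMGB2 had ratios of -2.66, 0.18 and -1.59 and is named because limma called it when PLC was left out.

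Polyadenylated histone transcripts divided the lines. Of 19 listed genes 16 were tested, with medians of -0.87, 1.04 and 0.75, and -0.70, 1.20 and 0.50 with trends removed. HIST1H1C and HIST1H2BK were picked after their values were seen. HIST1H1C, a linker histone gene, went from 388 to 99.6 FPKM in Huh7, from 19.5 to 57.7 in PLC and from 81.9 to 348 in 97H. HIST1H2BK went from 429 to 178 FPKM in Huh7, from 15.9 to 79.9 in PLC and from 68.2 to 153 in 97H. For both genes Huh7 was lower with the inhibitor while PLC and 97H were higher, and the Huh7 controls were far above the other controls. HIST2H2BE, in contrast, went from 8.91 to 16.1 FPKM in Huh7, from 1.09 to 4.08 in PLC and from 6.55 to 18.6 in 97H, higher in each line. H1F0, the linker histone of resting cells, had ratios of -0.93, -0.55 and -0.49. Histone copies share sequence, so single histone genes are uncertain.

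Lists tied to growth stood lower in Huh7. Cytosolic ribosomal protein genes had medians of -0.62, -0.64 and -0.17, 61 of the 79 were lower in every line, and 48 were lower at an unadjusted p under 0.05. The 97H median was 0.04 under median ratio scaling, where the median of all genes was 0.07. RPL26 went from 576 to 348 FPKM in Huh7, from 392 to 264 in PLC and from 463 to 270.02 in 97H. RPS2 went from 3075 to 1638 FPKM in Huh7, from 4544 to 2352 in PLC and from 3721 to 3320.4 in 97H. Processed copies of ribosomal protein genes make single members uncertain. Among 49 genes of ribosome biogenesis, which assemble ribosomes in the nucleolus, medians were -0.76, -0.12 and -0.46, with 0.03 in PLC after trend removal, and 12 were lower at an unadjusted p under 0.05. FBL, the methyltransferase fibrillarin, went from 180.3 to 53.8 FPKM in Huh7, from 209 to 76.9 in PLC and from 259 to 174 in 97H. PA2G4, a growth regulator of the nucleolus, had ratios of -1.24, -1.10 and -0.46. An E-box, CACGTG, the element of MYC and of the MiT/TFE factors, was in 17 of 42 promoters of ribosome biogenesis genes (40.5%), beside 10.7% of tested genes and 7.43% of all promoters.

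Splicing and export factors had medians of -1.04, -0.44 and -0.21, and 17 of 33 were lower at an unadjusted p under 0.05. DDX39A, an RNA helicase of mRNA export, went from 54.9 to 25.4 FPKM in Huh7, from 82.5 to 32.7 in PLC and from 35.1 to 24.6 in 97H. HNRNPA1 went from 283 to 117 FPKM in Huh7, from 187 to 148 in PLC and from 227 to 101 in 97H. DDX39A stepped least in 97H and HNRNPA1 least in PLC. Chaperones of the HSP90 and TRiC systems had medians of -0.67, 0.32 and -0.70, with PLC on the other side of 0 also under median ratio scaling, quantile normalization and trend removal. After trend removal the PLC median of 0.16 did not lie above the 0.21 of all genes in PLC. The collagen chaperone SERPINH1 stood apart from this list, from 82.3 to 159 FPKM in Huh7, from 40.1 to 77.6 in PLC and from 51.7 to 91.2 in 97H. Proteasome genes had -0.66, -0.10 and -0.33, with 6 of 31 lower at an unadjusted p under 0.05, and nuclear envelope and transport genes -0.89, 0.20 and -0.50, with 6 of 33. The PLC median of the nuclear envelope list was -0.10 under median ratio scaling and -0.04 with trends removed, and that of the proteasome list 0.0047 under quantile normalization. LMNB1, for lamin B1, went from 38.2 to 7.48 FPKM in Huh7, from 10.3 to 7.60 in PLC and from 25.1 to 10.2 in 97H. Its ratio was small in PLC, -0.67 with trends removed. Of glycolysis genes, LDHA, lactate dehydrogenase A, went from 522 to 226 FPKM in Huh7, from 419 to 339 in PLC and from 566 to 283 in 97H. ENO1, enolase, had ratios of -1.07, -0.88 and -0.18, while the medians over 31 genes of that list were 0.07, -0.10 and -0.08. The PLC median of the glycolysis list was 0.11 with trends removed, and the 97H median 0.02 under median ratio scaling.

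**Figure D4:**
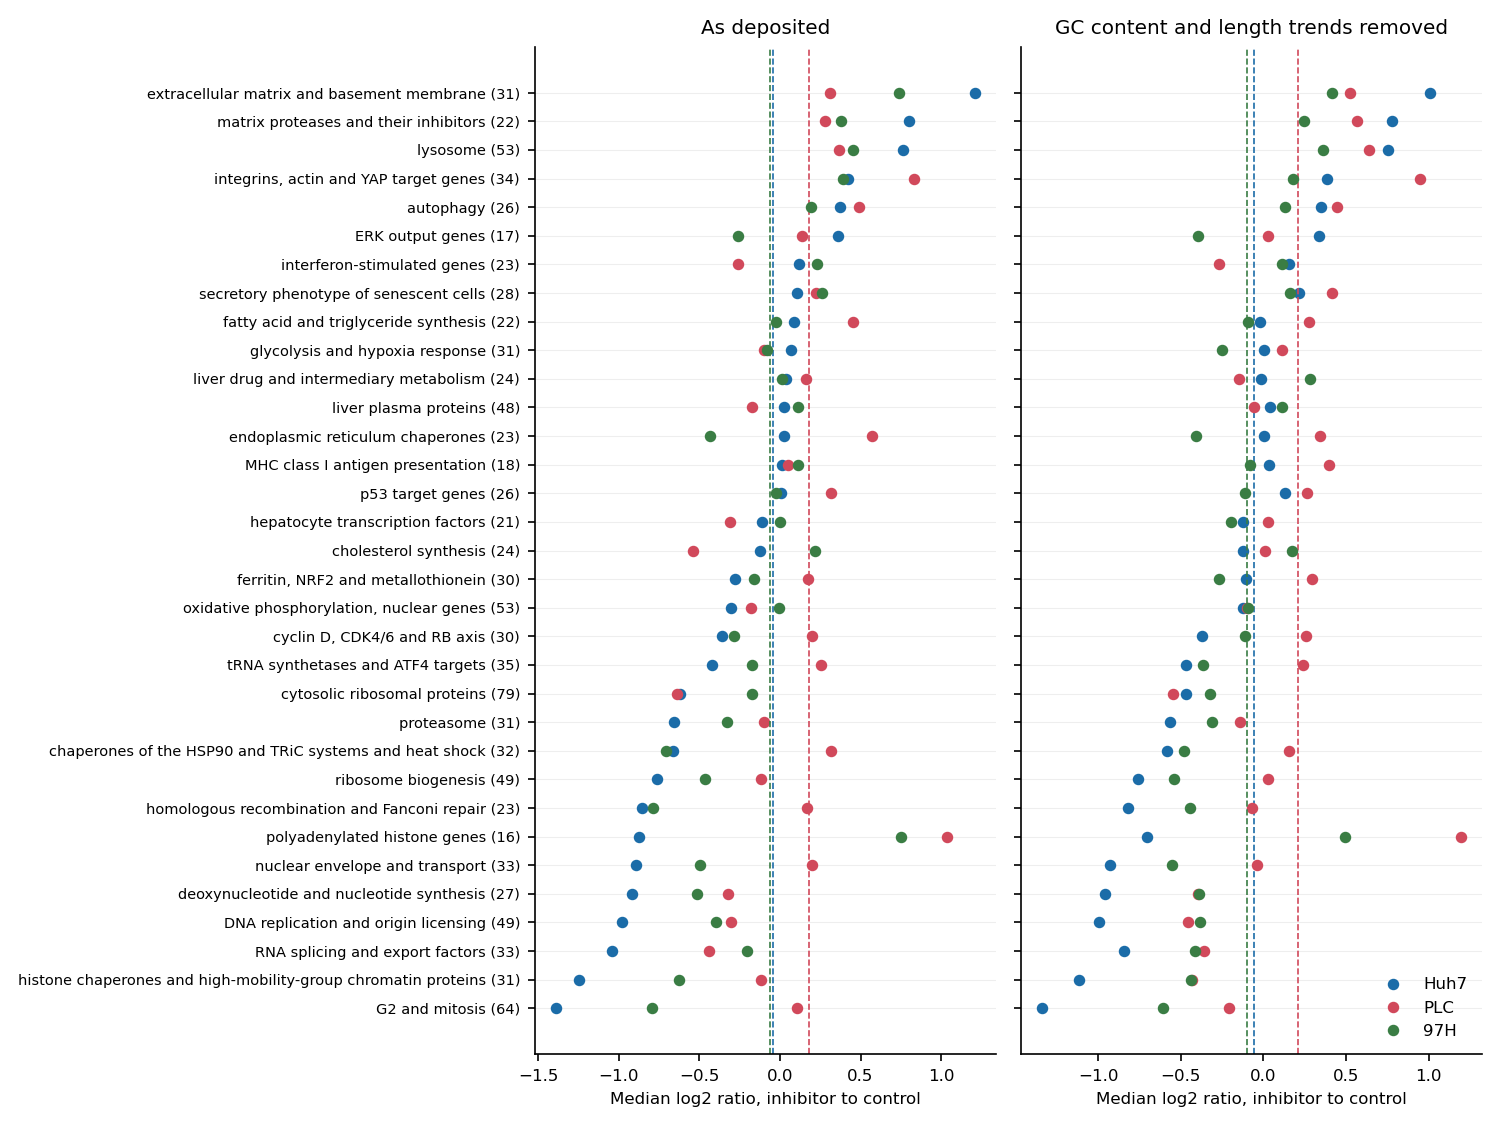
Median log2 ratio (x axis) of each gene list in Huh7, PLC and 97H, with the number of tested genes in parentheses and dashed lines at the median of all tested genes in each line, as deposited on the left and with trends removed on the right. Replication, nucleotide, chromatin and splicing lists lie left of 0 in every line, and the matrix, protease, lysosome, autophagy and adhesion lists lie right of 0 in every line.

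The lysosome list stood higher in all 3 lines. The lysosome is the acid compartment where cells degrade what they take in or wrap by autophagy. The 53 genes had medians of 0.76, 0.37 and 0.46 in Huh7, PLC and 97H (0.75, 0.64 and 0.36 with trends removed), and the sign held in each line under median ratio scaling and quantile normalization too. 27 were higher in every line and 1 lower, and 21 were higher at an unadjusted p under 0.05, with 0 lower. Of all tested genes, 12.9% were higher in every line, 10.3% lower in every line and 4.57% higher at that threshold. The counts of higher genes in the autophagy, matrix, protease and integrin lists are read against the same shares. NEU1, a sialidase, went from 54.4 to 132 FPKM in Huh7, from 194 to 296 in PLC and from 70.2 to 134 in 97H. NPC2, which carries cholesterol out of lysosomes, went from 49.3 to 98.96 FPKM in Huh7, from 99.5 to 235 in PLC and from 43.8 to 65.98 in 97H. The membrane protein gene CD63 went from 188 to 299.8 FPKM in Huh7, from 182 to 283 in PLC and from 318 to 479 in 97H. The step was nearly even over the lines. The protease gene CTSB went from 36.3 to 62.4 FPKM in Huh7, from 63.8 to 103 in PLC and from 106 to 167 in 97H. Within each line all 4 were higher with the inhibitor. CD68, a lysosomal membrane protein that also served as a leukocyte marker, had ratios of 1.34, 1.46 and 0.43.

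An E-box was in 9 of the 34 lysosomal promoters with an entry (26.5%), and an E2F match in 0. Stretches of NEU1 at chr6:31862902-31862987 and CD63 at chr12:55729144-55729229, both on the minus strand, are shown. Both are lysosomal genes of small p with an E-box before the start site, in capitals.
NEU1: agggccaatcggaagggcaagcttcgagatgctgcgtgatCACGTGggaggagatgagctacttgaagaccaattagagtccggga
CD63: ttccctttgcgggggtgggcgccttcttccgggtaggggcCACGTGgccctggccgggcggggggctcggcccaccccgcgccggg

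Autophagy genes had medians of 0.37, 0.49 and 0.19 over 26 tested genes, and 7 were higher at an unadjusted p under 0.05, with 0 lower. TP53INP2, which shuttles autophagy proteins to membranes, went from 15.6 to 82.2 FPKM in Huh7, from 25.5 to 44.9 in PLC and from 2.09 to 10.7 in 97H. Its ratios in Huh7 and 97H were the largest of the list. MAP1LC3B, the LC3B gene, went from 61.3 to 127 FPKM in Huh7, from 49.96 to 106 in PLC and from 32.3 to 45.1 in 97H.

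The matrix list stood higher in all 3 lines, most in Huh7. Of 41 genes of extracellular matrix and basement membrane 31 were tested, with medians of 1.21, 0.31 and 0.74 (1.01, 0.52 and 0.42 with trends removed), and 12 were higher at an unadjusted p under 0.05, with 0 lower. MATN3, a matrilin, went from 57.8 to 274 FPKM in Huh7, from 0.0837 to 2.27 in PLC and from 1.04 to 2.46 in 97H. TGFBI, a TGF-beta-induced matrix protein, went from 172 to 317 FPKM in Huh7, from 15.7 to 48.3 in PLC and from 85.3 to 136 in 97H. In PLC and 97H MATN3 was at low FPKM. HSPG2 went from 9.27 to 39.3 FPKM in Huh7, from 1.74 to 4.01 in PLC and from 2.65 to 10.9 in 97H. The laminin subunit gene LAMB1 had ratios of 1.42, 2.69 and 0.05, nearly equal in 97H. As a sum, fibroblast and stellate cell markers moved with this list in Huh7 and 97H. The 9 markers summed to 36.3 FPKM in the Huh7 control and 144 with the inhibitor, 0.747 and 0.591 in PLC, and 3.77 and 8.70 in 97H. The 97H sums rest largely on the highest marker, at 3.17 FPKM in the control and 6.15 with the inhibitor. In 97H 1 of the 9 reached 1 FPKM in the control and 2 with the inhibitor. Of the 3 tested markers, 2 were higher and 1 lower in 97H. In Huh7 6 of the 9 reached 1 FPKM in both libraries, with COL1A2 at 16.2 and 77.8 and LUM at 9.51 and 40.8 in control and inhibitor, while THY1 was at 0 in both Huh7 libraries and DCN was listed at 0 and 0.0233 FPKM. Their part in the matrix result was not tested.

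Over the settings tried, the PLC median of the matrix list ranged over 0.10 to 0.57, that of the protease list over 0.12 to 0.85, of the lysosome list over 0.15 to 0.64 and of the autophagy list over 0.19 to 0.67, while the PLC median of all genes ranged over -0.02 to 0.27. Proteases and their inhibitors had medians of 0.80, 0.28 and 0.38, with 9 of 22 higher and 0 lower at an unadjusted p under 0.05. MMP14, a membrane-bound collagenase, went from 55.8 to 149 FPKM in Huh7, from 60.5 to 105 in PLC and from 18.3 to 55.1 in 97H. TIMP1 had ratios of 1.92, 0.38 and 0.63. Integrin, actin and YAP target genes had medians of 0.42, 0.83 and 0.39, with 13 of 34 higher and 0 lower at the same threshold. CYR61, a YAP target, went from 99.5 to 175 FPKM in Huh7, from 37.6 to 169.8 in PLC and from 8.97 to 20.3 in 97H. MYL9, a myosin light chain, went from 159.8 to 217 FPKM in Huh7, from 75.1 to 347 in PLC and from 4.20 to 34.9 in 97H. CTGF went from 125 to 353 FPKM in Huh7, from 13.4 to 45.5 in PLC and from 10.4 to 15.5 in 97H. The steps of MYL9 were large in PLC and 97H and small in Huh7.

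Senescence-related secreted factors, p53 targets and immune genes are read against 4.57% higher and 4.23% lower of all genes at an unadjusted p under 0.05. Of 28 tested genes of the senescent secretory phenotype, 2 were higher at an unadjusted p under 0.05: the growth factor genes HBEGF (from 3.87 to 19.9 FPKM in Huh7, from 1.02 to 4.41 in PLC and from 1.76 to 2.68 in 97H) and PDGFB (ratios of 1.15, 0.78 and 0.85). The list medians were 0.10, 0.22 and 0.26. Of 26 p53 targets, 4 were higher at that threshold, CDKN1A, GADD45A, TP53INP1 and BTG2, and list medians were 0.01, 0.32 and -0.02, which changed sign in 97H under median ratio scaling (0.18) and in PLC and 97H under quantile normalization (-0.0026 and 0.08). GADD45A, a stress-induced inhibitor of growth, went from 27.03 to 61.3 FPKM in Huh7, from 2.04 to 13.3 in PLC and from 28.5 to 38.5 in 97H. Of 23 interferon-stimulated genes 0 were higher and 0 lower at this threshold, with medians of 0.12, -0.26 and 0.23. Of 18 genes of MHC class I presentation, HLA-E was higher at this threshold, from 10.9 to 24.5 FPKM in Huh7, from 25.1 to 42.2 in PLC and from 48.9 to 78.5 in 97H. PSME2, a proteasome activator, and TAP2, a peptide transporter, were lower at it, PSME2 with ratios of -1.06, -0.50 and -0.42 and TAP2 with -0.70, -1.36 and -0.23. HLA genes share sequence, so HLA-E and HLA-DMA are uncertain to that extent.

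Liver genes showed no common direction as a list. Of 48 tested plasma protein genes, 3 were higher at an unadjusted p under 0.05 and 0 lower, with medians of 0.02, -0.17 and 0.11. That count of higher genes is near the share of all genes, where 4.57% were higher and 4.23% lower. TTR, transthyretin, went from 407 to 3168 FPKM in Huh7, from 2.67 to 21.7 in PLC and from 2.65 to 3.63 in 97H, with log2 ratios of 2.96, 2.63 and 0.34. The step was wide in Huh7 and PLC and small in 97H. HPX, which binds haem, had ratios of 1.12, 1.22 and 0.35 and KNG1, for kininogen, 0.51, 2.45 and 0.06. APOE had 1.22, -0.09 and 0.58. Of 24 genes of drug and intermediary metabolism, UGT1A1 went from 1.40 to 2.51 FPKM in Huh7, from 12.5 to 177 in PLC and from 10.6 to 18.3 in 97H; it shares exons with the other UGT1A genes, and its counts are uncertain. No hepatocyte transcription factor gene of 21 was past an unadjusted p of 0.05, and CEBPA had ratios of -0.55, -0.31 and -0.97. Cholesterol synthesis genes had medians of -0.13, -0.54 and 0.22, and the PLC value was 0.01 with trends removed. HMOX1, which degrades haem, went from 27.2 to 45.6 FPKM in Huh7, from 93.8 to 189.5 in PLC and from 239 to 592 in 97H, higher in each line. Over the 30 tested genes of the ferritin, NRF2 and metallothionein list, medians were -0.28, 0.17 and -0.16. Of the 30, 1 was higher and 2 lower at an unadjusted p under 0.05.

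Some of the largest steps belonged to 1 line, by the rule that the log2 ratio was under 0.5 in size in both others; that rule fixes the difference, so it is no test. In Huh7, HSD3B1, a steroid dehydrogenase, stood at 1.44 and 19.2 FPKM in control and inhibitor, EGLN3, an oxygen sensor, at 6.47 and 43.8 and the neuropeptide gene NTS at 31.8 and 181. The chemokine gene CCL20 stood at 90.4 and 18.6, and MYCN at 11.9 and 3.51. FMOD, CCDC80, MYL4 and PRSS35 were also higher, with ratios of 2.48 to 3.02, and IL17RB, VWCE, E2F7, GNG4, PIMREG and NDUFAF4 lower, with -1.77 to -1.40. In PLC, KRTAP3-1 stood at 2.02 and 138, NKX1-2 at 3.55 and 38.9, and the hydroxysteroid sulfotransferase gene SULT2A1 at 0.458 and 8.81. CRH, the stress peptide hormone gene, stood at 237 and 30.3, G6PC, the last enzyme of glucose release, at 8.21 and 0.546, and SREBF1, a regulator of lipid synthesis, at 36.2 and 8.14. STBD1, MIGA1, TPD52L1, NCEH1 and GJA1 were also higher (2.60 to 2.86), and ZMYND15, C2CD4B, TMEM145 and NR4A1 lower (-2.39 to -2.19). TNFAIP8L2-SCNM1, a readthrough gene whose counts are uncertain, stood at 6.47 and 0.000251. In 97H, the trypsin inhibitor gene SPINK1 stood at 3.81 and 21.99, the smooth muscle actin-binding gene TAGLN at 3.72 and 16.7 and CD79A at 8.61 and 34.3. VSIG1 stood at 37.7 and 9.81, the disulfide isomerase gene AGR2 at 103 and 45.5 and the drug efflux gene ABCB1 at 3.26 and 0.952. PDZK1IP1, CST1, SPANXD, TSPAN10 and CCL15 were also higher (1.89 to 2.30), and PEX3, LONRF2, SDHAF3, GPR89A and ZCCHC9 lower (-1.28 to -1.11), where SPANXD and GPR89A have near-identical copies. With 1 library per line and treatment these have no replicate check. They are given as deposited, with the GC content trends in them. In the lowest quintile of GC content, 869 of 2091 genes were at least 2-fold higher in PLC and 3 lower. In the highest quintile, 40 of 2091 were higher and 353 lower. In 97H, 0 were higher and 227 lower in the lowest quintile, and 145 higher and 0 lower in the highest. The part of the trends in the named steps was not tested.

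Likeness between the lines is given across genes as a description. Across the 10477 genes the log2 ratios had a Spearman rank correlation, rho, of 0.418 between Huh7 and 97H, 0.146 between Huh7 and PLC and -0.512 between PLC and 97H. With the trends removed these were 0.461, 0.353 and -0.0011. At least 2-fold higher, Huh7 and 97H shared 53 genes (12.9% of those in Huh7 and 21.5% of those in 97H), Huh7 and PLC 116 (28.3% of those in Huh7 and 6.08% of those in PLC) and PLC and 97H 26 (1.36% of those in PLC and 10.5% of those in 97H). At least 2-fold lower, Huh7 and 97H shared 98 genes (21.6% of those in Huh7 and 23.3% of those in 97H), Huh7 and PLC 79 (17.4% of those in Huh7 and 14.3% of those in PLC) and PLC and 97H 0. With trends removed, Huh7 and 97H shared 22 higher genes (5.96% of Huh7's and 22.9% of 97H's) and 23 lower (5.87% and 34.8%). Huh7 and PLC shared 124 higher (33.6% of Huh7's and 12.6% of PLC's) and 29 lower (7.40% and 18.4%). PLC and 97H shared 33 higher (3.35% of PLC's and 34.4% of 97H's) and 3 lower (1.90% and 4.55%). As shares of all tested genes, the single lines stand at the 2-fold percentages given above. The lines share no library, and genes are not replicates.

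**Figure D5:**
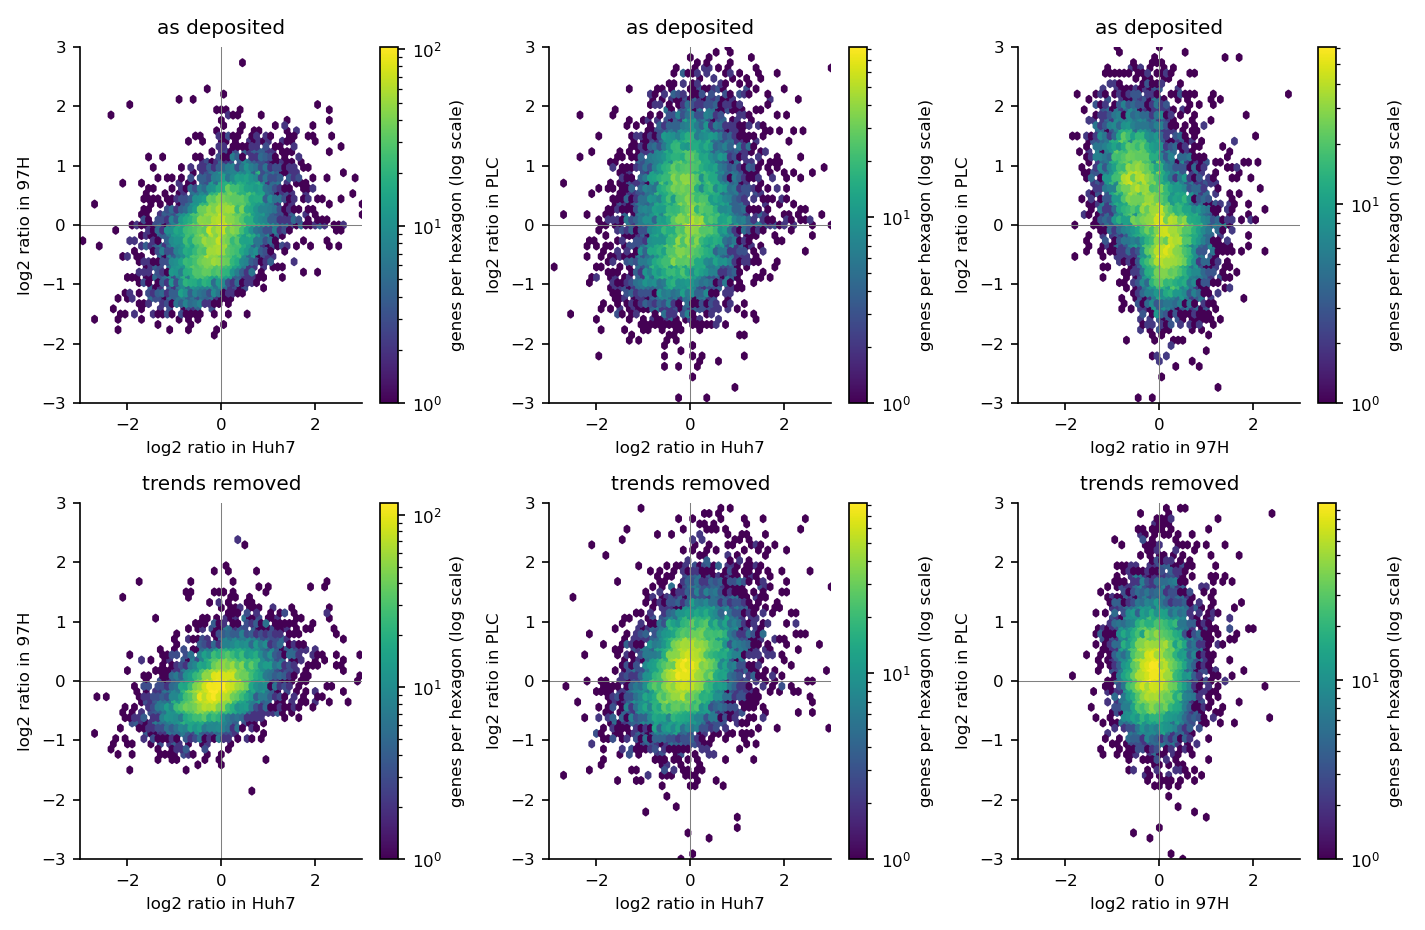
Log2 ratio of inhibitor to control in one line against another, each hexagon coloured by its number of genes on a log scale; top row as deposited, bottom row with GC content and length trends removed. The tilt of PLC against 97H, with a rho of -0.512, is near 0 in the lower row (-0.0011), and Huh7 against 97H keeps an upward tilt (0.418 and 0.461).

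Leaving out the PLC control and inhibitor libraries, limma called 154 genes at an adjusted p under 0.05: 71 higher (0.678%) and 83 lower (0.792%). This fit has 2 residual degrees of freedom, and limma's prior degrees of freedom were 23.5 in it against 5.86 with all libraries. The other 2 lines carry GC trends of 1 sign, 0.176 and 0.724, and the part of these trends in the calls was not tested. The called genes include 21 of the 64 of G2 and mitosis and 8 of the 31 chromatin genes, lower, and 7 of the 31 matrix genes, higher. TP53INP2 had the smallest adjusted p there, 0.00268, with a log2 difference of 2.12, then SOD3, an extracellular superoxide dismutase, with 2.02, and HMGB2 with -2.13, both at an adjusted p of 0.00599 by limma. In PLC, 46 of the 71 were higher too (64.8%, beside 59.5% of all tested genes), and 23 of the 83 were lower (27.7%, beside 39.9%). With trends removed, 58 of the 71 were higher (81.7%, beside 65.1%) and 56 of the 83 lower (67.5%, beside 34.9%). Whether PLC differs from the other lines was not tested.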

How the data were processed

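RNA from 3 liver cancer cell lines was sequenced (Trizol total RNA, TruSeq RNA libraries, per the labels' protocols). CASAVA 1.8.2, STAR 2.4.2g1, featureCounts and Subread (no version) and the build GRCh38 are named, with no order, in the submitters' processing notes. The authors deposited 1 table of FPKM for 20030 genes and 10 libraries. Reads could not be recovered from the FPKM values, so the depth is unknown and no count model was run. Dates stood in place of 27 gene symbols, which were restored.

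The 10477 genes whose FPKM averaged 1 or more across the 10 libraries entered limma (version 3.58.1, under R 4.3.3) as log2(FPKM + 1), a scale that understates changes of low genes. The fit had treatment and line as terms, 10 libraries and 4 residual degrees of freedom, with Benjamini-Hochberg adjustment over all tested genes. The line pairs the libraries: control and inhibitor of a line deviated together from their group means, where Pearson's r was 0.901 for the Huh7 pair, 0.665 for the PLC pair and 0.818 for the 97H pair. Trends with GC content and length, from GENCODE 29 transcripts matched to 19474 genes (97.2%), were removed per library with natural splines of 5 degrees of freedom. The scripts were tested on simulated data. Promoters are RefSeq's.

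Named genes were the 15 per direction with the largest smallest log2 ratio over the lines, all axis genes, the members of each list with the smallest p or past 2-fold in all 3 lines, and the 8 per line and direction with a log2 ratio under 0.5 in size in both other lines. Genes named outside this rule were chosen after their values were seen. The comparison and the gene lists were chosen with earlier results of these data known. Other pseudocounts, filters, scalings, designs and left-out libraries were tried. A few genes that the rule names are not reported here.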

Additional observations from a re-analysis of the deposited data

Results flagged for a closer look

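These gene lists had medians on opposite sides of 0 in 2 lines, by at least 0.25 on the log2 scale in each; the differences between lines were not tested. Polyadenylated histone genes had a median log2 ratio of -0.87 in Huh7 against 1.04 in PLC and 0.75 in 97H, and with trends removed -0.70 against 1.20 and 0.50. Chaperones of the HSP90 and TRiC systems stood at -0.67 in Huh7 and -0.70 in 97H against 0.32 in PLC, and with trends removed at -0.59 and -0.48 against 0.16, where the median of all genes in PLC was 0.21, so PLC did not lie above it. ERK output genes, which follow the MAP kinase cascade, had 0.36 in Huh7 and -0.26 in 97H, with trends removed 0.34 and -0.40. Genes of tRNA synthetases and ATF4 targets had -0.42 in Huh7 and 0.26 in PLC, with trends removed -0.47 and 0.24. The PLC values lay close to the medians of all genes in PLC, 0.18 as deposited and 0.21 with trends removed. Under median ratio scaling the PLC value was -0.0031, beside 0 over all genes. Endoplasmic reticulum chaperones had 0.57 in PLC and -0.43 in 97H, with trends removed 0.34 and -0.41. The medians of all genes were 0.18 in PLC and -0.06 in 97H, and with trends removed 0.21 and -0.10.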

How the results depend on the processing

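At an adjusted p under 0.05, limma's count of 0 genes held in 18 of 19 settings, and leaving out libraries or lines gave 0 to 154 genes, the 154 without PLC. Without the replicate block, which pairs the libraries by line, 0 genes were called as well, with 24 higher and 42 lower at an unadjusted p under 0.05. On the 6 control and inhibitor libraries alone, with the block, limma's smallest adjusted p was 0.958. There 284 genes were higher and 220 lower at an unadjusted p under 0.05. The 8 genes at least 2-fold higher in all 3 lines became 31 with a pseudocount of 0.1 and 5 under quantile normalization, and 26 to 116 when 1 line was left out. With trends removed the count was 11, of which only SYNPO and TMEM140 were among the 8. The 0 lower genes became 5 with the pseudocount of 0.1, 1 under median ratio scaling, 1 under quantile normalization, 2 with trends removed and 0 to 98 when 1 line was left out. Counts at least 2-fold within a line were recomputed under settings added after seeing the data. With the pseudocount of 0.1, Huh7 had 673 higher and 736 lower, and 97H 523 higher and 1103 lower. Under median ratio scaling, Huh7 had 288 lower, PLC 1172 higher and 1197 lower, and 97H 502 higher and 215 lower. Quantile normalization gave 991 higher and 922 lower in PLC and 271 lower in 97H. Trend removal gave 985 higher and 158 lower in PLC and 96 higher and 66 lower in 97H. The median of polyadenylated histone genes was -0.0598 to 0.895 when 1 line was left out, negative without PLC. Of 5604 refits of the 298 named genes, 127 had the other sign, 115 of them in refits that left out a line or a library. 0 of the 127 were called, which says little, since only the setting without PLC called any gene. The cause of these moves was not tested. With 1 library per line and treatment and no counts, no change of any size was called with all lines in, and small changes of low genes were not detectable.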
